A study of Mus musculus with 12 samples.

Results

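The metalloproteinase family of the tissue, made up of matrix metalloproteinases (MMPs), ADAMs, ADAMTS proteinases and the tissue inhibitors of metalloproteinases (TIMPs), was followed through bulk RNA-seq of 12 mouse melanoma tumors. Members were all protein-coding genes of the count table whose symbol is Mmp, Timp, Adam or Adamts directly followed by a digit, and 78 of the 55487 gene identifiers met this rule. They comprised 22 MMPs, 4 TIMPs, 33 ADAMs and 19 ADAMTS genes. Mmp1a has the form of the symbol but is annotated as a polymorphic pseudogene and was left out by the rule. Arf6-null tumors (n = 6) carried the genotype BrafCA;Cdkn2af/f;Arf6f/f, and wild-type tumors (n = 6) carried BrafCA;Cdkn2af/f, so all 12 share the conditional activating Braf allele and the floxed Cdkn2a, and wild type refers to Arf6 alone. The labels name neither the Cre driver nor the age or sex of the animals, and do not say whether each tumor came from a separate animal, so a p-value here reflects only the variation among these samples.

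MMPs are zinc-dependent endopeptidases that are made as inactive precursors and cut collagens, gelatin, proteoglycans and other matrix proteins. Some are secreted and some are held at the cell surface, and TIMPs block their active sites. ADAMs are membrane-anchored relatives that release the outer parts of growth factors, cytokines and adhesion receptors from the cell surface, while ADAMTS proteinases are secreted and process procollagens and proteoglycans. In tumors these genes are expressed by cancer cells and by fibroblasts, endothelial cells and leukocytes alike. In a bulk sample, fewer cells of a type and less RNA per cell cannot be told apart.

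Library totals were 21007954 to 45688253 counts in Arf6-null and 22211738 to 30326419 counts in wild-type tumors. Arf6, the small GTPase gene that was targeted, had 12.2 to 22.5 CPM (counts scaled to the size of the library) in Arf6-null tumors and 84.2 to 147 CPM in wild-type tumors, without overlap (log2 fold change -2.60, standard error 0.18, adjusted p = 0.000101 by edgeR). Library numbers in the labels were 19 to 24 in Arf6-null and 1 to 6 in wild-type tumors, so anything that follows these numbers cannot be told apart from genotype. The melanocyte list of 14 genes summed to 29.2 to 156 CPM in Arf6-null and 45.0 to 139 CPM in wild-type tumors. Mlana had 0 counts in all 12 libraries, and Tyr, Tyrp1 and Dct had 2 counts each over all of them. These pigment genes were thus absent or nearly so in tissue labelled as melanoma. Mitf, the lineage factor of melanocytes, had 6749 counts. Of the 14 genes, 5 passed the filter on low counts, and Mitf alone does not show that the lineage was kept, which was not tested. Skeletal muscle markers summed to 10.2 to 101 CPM in Arf6-null and 40.2 to 4262 CPM in wild-type tumors, with wild-type replicates 3, 4 and 5 highest, and Y-linked transcripts were at 0.444 CPM or less in Arf6-null replicate 6 and in wild-type replicates 3, 5 and 6.

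No member of the family passed the genotype test by edgeR. The members nearest to the threshold were Adam22, a catalytically inactive receptor for LGI proteins (adjusted p = 0.0752), Adam17, the main sheddase of TNF and of several EGF receptor ligands (adjusted p = 0.0815), and Adam7, a gene known in the mouse for its expression in the epididymis (adjusted p = 0.0825), each by edgeR. Of 78 members, 52 passed the filter on low counts and were tested by the edgeR quasi-likelihood method in a fit of 16225 genes. The count was 0 of 52 at an adjusted p under 0.05, where 1.15% of all tested genes were called (0.586% higher and 0.561% lower), so a count of 0 is near the background. At an unadjusted p under 0.05 the count was 14 of 52 (26.9%), 4 higher and 10 lower in Arf6-null tumors, against 23.4% of all tested genes (11.0% higher and 12.4% lower). Adam22, Adam17 and Adam7 were the 3 members at an adjusted p under 0.1, which 8.38% of all tested genes reached. No tested member had groups without overlap, as 2.36% of all tested genes did. DESeq2 called 7 of the 70 members in its fit, some of which may lack an adjusted p. Over all genes with an adjusted p it called 11.0%. The 7 were Adam17 and Adam7 as higher and Adam22, Adamts12, Adamts16, Adamts17 and Mmp15 as lower. Limma-voom with quality weights called 5 of 52 members, where 5.74% of all tested genes were called. The 5 were Adam17, Adam7 and Timp1 as higher and Adam22 and Mmp15 as lower.

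**Figure D1:**
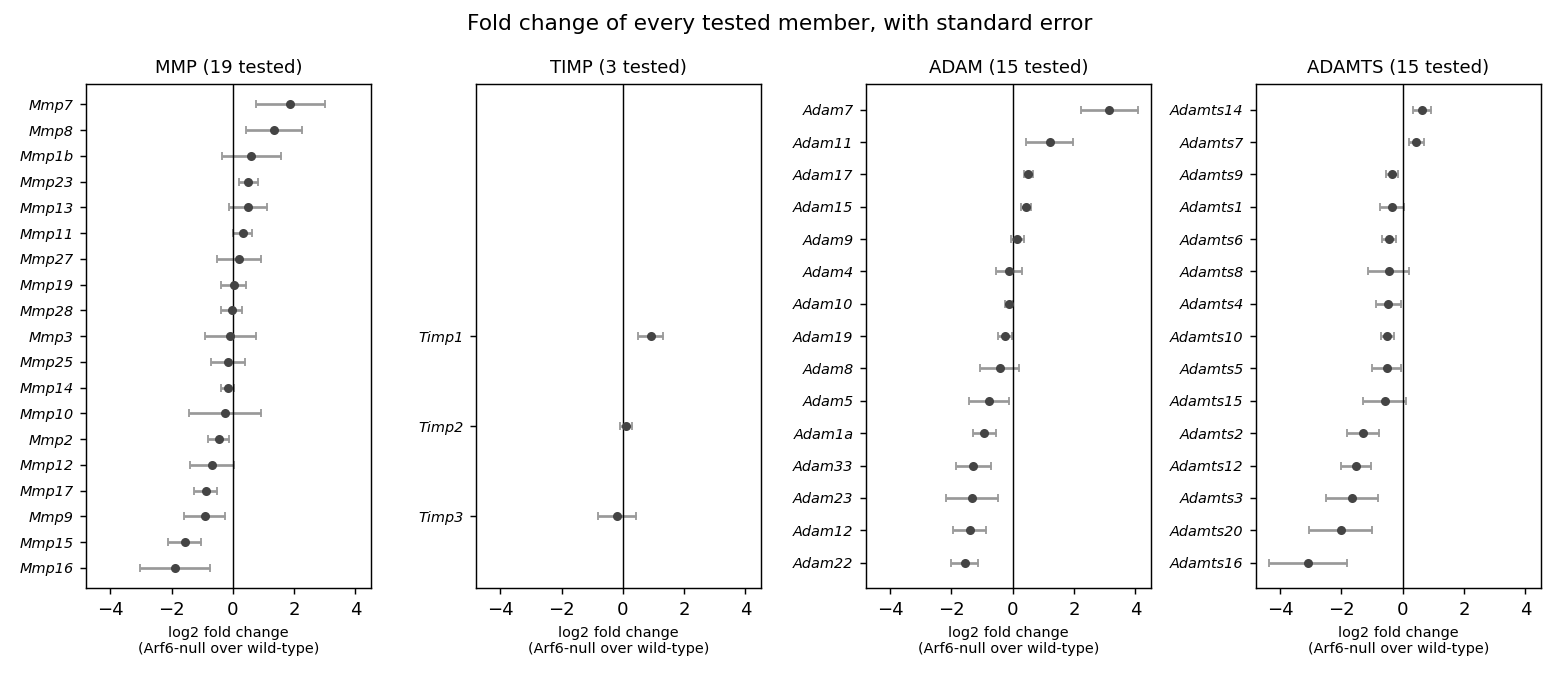
Log2 fold change (Arf6-null over wild-type, edgeR, n = 6 each) of the 52 tested members, one panel per class, with points for the estimate and bars for its standard error. Values ran from -3.10 for Adamts16 (-1.36 without wild-type replicate 6) to 3.14 for Adam7, and no member passed at an adjusted p under 0.05.

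The median log2 fold change of the tested members was -0.30, beside -0.03 over all tested genes. A negative value was found for 35 of the 52 (67.3%), against 52.8% of all tested genes. By class the median was -0.08 for 19 MMPs, 0.09 for 3 TIMPs, -0.26 for 15 ADAMs and -0.51 for 15 ADAMTS genes, of which 13 were negative. With the score of fibroblast and collagen matrix markers as a covariate, the members' median was -0.03 and that of all tested genes -0.01. Of the 23 fibroblast markers, 21 had a negative log2 fold change, 0 passed by edgeR or limma-voom and 2 by DESeq2, 0 were at 0 counts throughout, and their sum was 5012 to 25093 CPM in Arf6-null and 15394 to 37588 CPM in wild-type tumors. Since most of these markers were lower in Arf6-null tumors, the covariate cannot separate these cells from genotype. Values with it are given below for some genes only. The part of these cells in the members' values was not tested further.

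The members differed more among tumors of the same genotype than most genes did. The SD of log2(CPM + 0.5) within a genotype had a median of 0.821 over the 52 tested members, against 0.322 over all tested genes. It was 2.41 for Mmp10, 1.97 for Mmp3, 1.72 for Mmp1b and 1.63 for Mmp7, and 0.235 for Adam10, the most even member. Arf6-null replicate 4 had the lowest value of the 12 tumors for 18 of the 52 members, and its fibroblast marker sum of 5012 CPM was also the lowest. Wild-type replicate 6, whose fibroblast sum of 37588 CPM was the highest, had the highest value for 11 members. How often these tumors were extreme over all tested genes was not counted, and the part of fibroblasts was not tested.

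Levels between genes were compared as CPM per kilobase of exon. Averaged over the 12 tumors, Timp1 was highest at 714, followed by Mmp2 at 313, Mmp3 at 267, Timp2 at 236, Timp3 at 213, Mmp10 at 137 and Mmp14 at 103 CPM per kilobase. Among the sheddases Adam9 stood highest with 54.9, and among ADAMTS genes Adamts1 with 58.7 CPM per kilobase. The MMP genes summed to 230.4 to 1394 CPM per kilobase in Arf6-null tumors (median 962) and to 593 to 1843 in wild-type tumors (median 882). The TIMP genes summed to 665 to 1742 CPM per kilobase in Arf6-null tumors (median 1459) and to 585 to 1522 in wild-type tumors (median 862). The MMP sum exceeded the TIMP sum in 1 of 6 Arf6-null and 3 of 6 wild-type tumors, with ranges that overlapped for both sums. Near ties bear on this count: the MMP and TIMP sums were 593.5 and 585.3 CPM per kilobase in wild-type replicate 4. They were 867.1 and 880.2 CPM per kilobase in wild-type replicate 5.

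A run of 9 MMP genes lies within 427.1 kb of chromosome 9 (GRCm38), from Mmp13 at 7272514 to Mmp7 at 7699585. It holds collagenase genes, the stromelysin genes Mmp3 and Mmp10, the macrophage elastase gene Mmp12 and the matrilysin gene Mmp7. Their promoters are shown because AP-1, a Fos and Jun dimer, is a textbook regulator of collagenase and stromelysin genes. RefSeq promoter windows (GRCm38.p6, 250 bases before to 50 after a start) were found for 48 members, including all 9 of this run. The pattern TGANTCA, used here for AP-1, reads the same on both strands. It occurred within the last 120 bases before a start in 7 of these 9 genes. By window this was 63.6% of their 11, against 3.41% of all 32851 windows. Mmp12 and Mmp7 have 2 windows each, with a match in 1, which for Mmp12 is the later one. The Mmp20 match reads TGAATCA, while the others have C or G as the middle base. TATAAA, searched on both strands, occurred in the same 120 bases in 6 of the 9 genes. By window this was 54.5% of the 11, against 6.34% of all windows. It did not overlap the AP-1 match in any of these genes. The 120 bases before the start are given 5′ to 3′ on the strand of the gene, with AP-1 matches in capitals, for 5 genes with a match and for Mmp8 without one.
Mmp13, plus strand, chr9:7272394-7272513: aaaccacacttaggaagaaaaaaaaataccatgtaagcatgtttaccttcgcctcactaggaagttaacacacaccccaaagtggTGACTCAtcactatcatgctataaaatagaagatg
Mmp1b, minus strand, chr9:7388027-7388146: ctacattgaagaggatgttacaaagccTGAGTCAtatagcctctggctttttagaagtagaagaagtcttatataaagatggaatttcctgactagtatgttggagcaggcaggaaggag
Mmp3, plus strand, chr9:7445702-7445821: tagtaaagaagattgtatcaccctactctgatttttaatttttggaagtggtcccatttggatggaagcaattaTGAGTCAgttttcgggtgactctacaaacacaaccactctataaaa
Mmp10, plus strand, chr9:7502222-7502341: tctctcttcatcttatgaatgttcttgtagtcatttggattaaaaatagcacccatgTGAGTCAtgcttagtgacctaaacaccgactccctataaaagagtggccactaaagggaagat
Mmp7, plus strand, chr9:7691970-7692089: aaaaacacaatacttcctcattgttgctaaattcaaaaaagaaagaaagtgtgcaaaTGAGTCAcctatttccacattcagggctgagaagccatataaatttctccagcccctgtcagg
Mmp8, plus strand, chr9:7558309-7558428: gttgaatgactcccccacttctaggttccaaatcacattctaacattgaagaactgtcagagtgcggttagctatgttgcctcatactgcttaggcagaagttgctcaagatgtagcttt
The match starts 35 bases before the start of Mmp13, 93 before that of Mmp1b, 46 before that of Mmp3, and 63 before those of Mmp10 and Mmp7. A match is a description of the letters and shows no binding.

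Mmp3, which encodes stromelysin 1, and Mmp10, its close relative stromelysin 2, varied over more than 100-fold among the 12 tumors, with neither genotype above the other. Mmp3 was at 406, 70.3, 698, 9.38, 829.9 and 792 CPM in Arf6-null replicates 1 to 6 and at 1284, 658, 236, 262, 309.7 and 211 CPM in wild-type replicates 1 to 6. Mmp10 was at 46.5, 24.4, 789.5, 4.16, 370.5 and 54.0 CPM in Arf6-null replicates 1 to 6 and at 877, 426, 65.7, 75.7, 78.6 and 14.5 CPM in wild-type replicates 1 to 6. The highest Mmp10 values fell in Arf6-null replicates 3 and 5 and in wild-type replicates 1 and 2, which were also high for Mmp3, and Arf6-null replicate 4 was lowest for both genes. The log2 fold changes were -0.08 for Mmp3 (standard error 0.82) and -0.25 for Mmp10 (standard error 1.18, adjusted p = 0.965 and 0.917 by edgeR). These standard errors leave room for differences of more than 2-fold in either direction, and the Mmp10 value was -1.34 without Arf6-null replicate 3 and 0.70 without wild-type replicate 1. Mmp1b, an interstitial collagenase gene, ran from 0.231 to 25.3 CPM in Arf6-null and from 0.971 to 27.0 CPM in wild-type tumors, and was highest in wild-type replicate 2 and Arf6-null replicates 3 and 5. Its paralog Mmp1a is close in sequence, and Mmp1b shares 157 exon bases with Mmp12 on the other strand, so its counts are uncertain.

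Across the 12 tumors, levels of Mmp3 and Mmp10 varied together (log2 scale, Pearson r = 0.837, permutation p = 0.0001, adjusted over 28 pairs of the 8 tested genes of the run p = 0.0028). The rank correlation was 0.79 (permutation p = 0.00331), which did not pass after adjustment (p = 0.0927). Without the 2 tumors farthest from the median of Mmp3, r was 0.783, and within genotypes r was 0.844 in Arf6-null and 0.942 in wild-type tumors (n = 6 each). Mmp1b and Mmp10 were the other pair to pass (r = 0.835, adjusted permutation p = 0.0119, rho 0.706 with adjusted p = 0.156). Their r was 0.726 without the 2 farthest tumors, 0.909 in Arf6-null and 0.826 in wild-type tumors. The other 26 pairs did not pass, among them Mmp3 with Mmp8, the gene on the other side of Mmp10 (r = -0.241). Ranked over 16224 other tested genes by r with Mmp3, Mmp10 was number 15, while Mmp9, which lies on chromosome 2, was number 13 with r = 0.84.

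**Figure D2:**
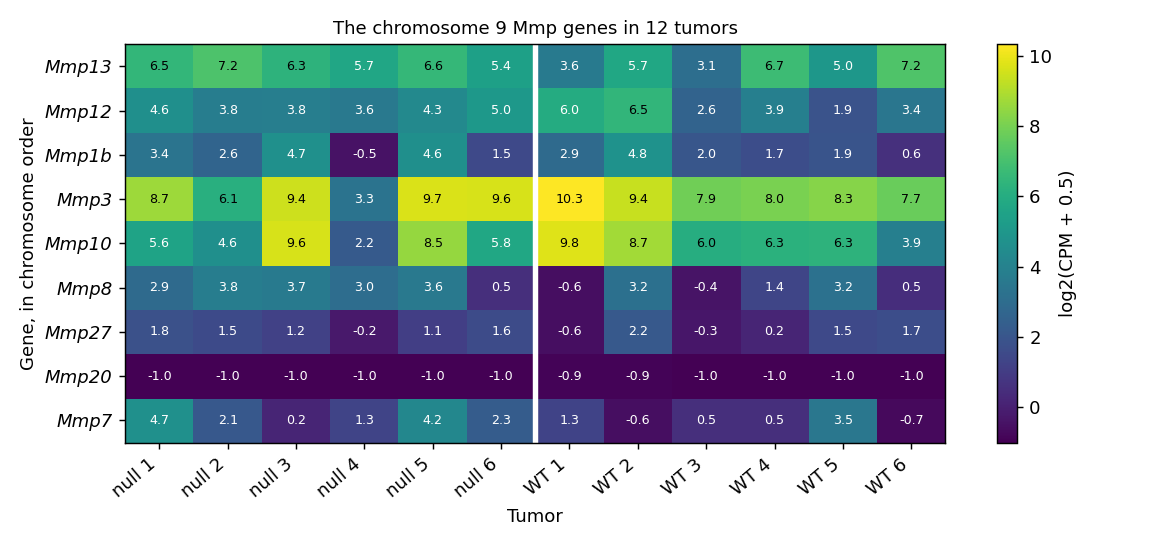
Levels, as log2(CPM + 0.5), of the 9 MMP genes of the chromosome 9 run in chromosome order (rows) in 6 Arf6-null and 6 wild-type tumors (columns), with the value printed in each cell and color following it. Mmp3, Mmp10 and Mmp1b share high cells in Arf6-null replicates 3 and 5 and in wild-type replicate 2, and Mmp20 is near 0 counts throughout.

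The rest of the run followed other patterns. Mmp13, encoding collagenase 3, was at 42.4 to 144 CPM in Arf6-null tumors (median 83.9) and at 8.01 to 147 CPM in wild-type tumors (median 42.1), so its wild-type values enclosed the Arf6-null ones (log2 fold change 0.48, standard error 0.63). Mmp8, the neutrophil collagenase gene, had values from 0.941 to 13.3 CPM in Arf6-null tumors (median 9.63) and 0.159 to 8.77 CPM in wild-type tumors (median 1.50). Neutrophil markers summed to 68.8 to 226 CPM in Arf6-null and 19.7 to 173 CPM in wild-type tumors, with 0 of 9 tested markers called and 3 positive. The tumors with the least Mmp8, wild-type replicates 1 and 3, had the lowest sums of 27.7 and 19.7 CPM. The next lowest for Mmp8, wild-type replicate 6 and Arf6-null replicate 6 (0.902 and 0.941 CPM), had sums of 100 and 86.9 CPM. Arf6-null replicate 1 had a smaller sum of 68.8 CPM with 7.08 CPM of Mmp8. The part of neutrophils in Mmp8 was not tested. Matrilysin, encoded by Mmp7, was at 0.624 to 25.1 CPM in Arf6-null tumors (median 4.12) and 0.104 to 10.7 CPM in wild-type tumors (median 0.945), with overlapping groups (log2 fold change 1.87, standard error 1.12, adjusted p = 0.335 by edgeR). It was 1.24 without Arf6-null replicate 1 and 3.48 without wild-type replicate 5. Mmp12 had medians of 16.7 and 12.3 CPM and Mmp27 of 2.07 and 1.49 CPM in Arf6-null and wild-type tumors. The enamel proteinase gene Mmp20 had 2 counts in all.

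Gelatinase A, the product of Mmp2, had the highest MMP level, and gelatinase B, the product of Mmp9, was far lower. Mmp2 ranged over 289.5 to 1215 CPM in Arf6-null tumors (median 1006) and 710.5 to 1879 CPM in wild-type tumors (median 1296). Arf6-null replicate 4 lay below all others and wild-type replicate 3 above them, and the groups overlapped (log2 fold change -0.46, standard error 0.35, adjusted p = 0.446 by edgeR; -0.02 with the fibroblast score as a covariate). Mmp9 ranged over 2.78 to 65.9 CPM in Arf6-null tumors (median 17.2) and 26.8 to 80.1 CPM in wild-type tumors (median 35.2). Only Arf6-null replicates 3 and 5 reached the wild-type range (log2 fold change -0.92, standard error 0.68, adjusted p = 0.437 by edgeR).

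Of the 6 MMPs classed as membrane-type, Mmp14, whose product activates pro-MMP2 at the cell surface, was abundant and even. It had 358 to 936 CPM in Arf6-null tumors (median 552) and 556 to 829 CPM in wild-type tumors (median 604), with a log2 fold change of -0.17 (standard error 0.21, adjusted p = 0.645 by edgeR). Mmp15, a second transmembrane type located on chromosome 8 at 95352268 to 95375080, was low, at 0.746 to 4.99 CPM in Arf6-null tumors (median 1.41) and 1.49 to 7.76 CPM in wild-type tumors (median 7.07). Every Arf6-null tumor lay below 5 of the 6 wild-type tumors, and wild-type replicate 5 lay within the Arf6-null range (log2 fold change -1.58, standard error 0.53, adjusted p = 0.111 by edgeR). Without Arf6-null replicate 6 the value was -2.08 (adjusted p = 0.0409 by edgeR, where 4.12% of all tested genes were called). Leaving out each tumor in turn gave -2.08 to -1.40, and no other omission passed. Mmp16 had medians of 0.771 and 3.14 CPM and Mmp17, a GPI-anchored type, of 1.06 and 1.92 CPM in Arf6-null and wild-type tumors (adjusted p = 0.338 and 0.182 by edgeR). The log2 fold change of Mmp16 was -1.89, and it was -3.35 without Arf6-null replicate 6 and -1.14 without wild-type replicate 3. Mmp25 was at 1.05 to 5.67 and 1.23 to 8.74 CPM, and Mmp24 had 19 counts in all and was not tested.

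The remaining MMPs showed overlapping groups throughout. Mmp19 had medians of 175 CPM in Arf6-null and 167 CPM in wild-type tumors (log2 fold change 0.02, standard error 0.40), and shares 789 exon bases with Tmem198b on the other strand. Mmp11, stromelysin 3, which is known as a stromal gene of carcinomas, had medians of 47.9 and 40.3 CPM, Mmp28 of 18.4 and 15.1 CPM, and Mmp23 of 26.8 and 19.5 CPM in the same order. Mmp21 had 3 counts in all.

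**Figure D3:**
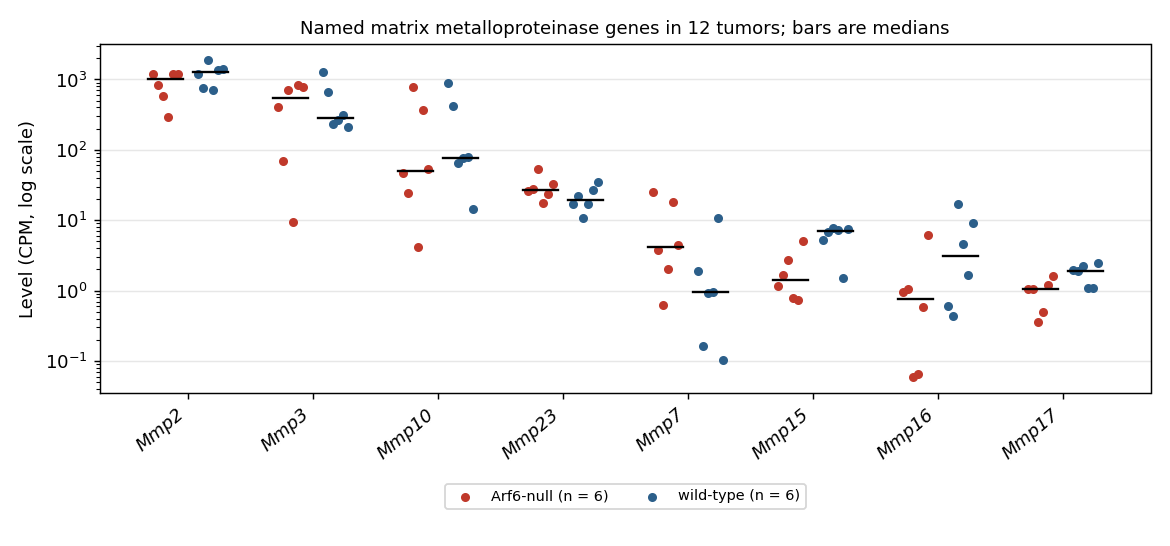
CPM (log axis) of the 8 MMP genes chosen by level or smallest p, in order of mean CPM per kilobase, with 1 point per tumor, Arf6-null left of wild-type and bars at the median (n = 6 each). The genotypes overlap for every gene, and Mmp3 and Mmp10 each span more than 100-fold.

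Among the inhibitors, Timp1 was the most abundant member per kilobase and higher in Arf6-null tumors by its median, without passing the test. It lies on chromosome X at 20870166 to 20874735. Timp1 was at 1068, 755, 381, 877, 992 and 888 CPM in Arf6-null replicates 1 to 6 and at 357, 1159, 196, 285, 368 and 278 CPM in wild-type replicates 1 to 6. All Arf6-null tumors exceeded 5 of the 6 wild-type tumors, whereas wild-type replicate 2 lay above every Arf6-null tumor. The log2 fold change was 0.91 (standard error 0.41, adjusted p = 0.209 by edgeR). Without wild-type replicate 2 it was 1.48 (adjusted p = 0.0282 by edgeR, where 4.69% of all tested genes were called). Leaving out each tumor in turn gave 0.76 to 1.48, and no other omission passed. The value by limma-voom with quality weights was 1.33 (adjusted p = 0.0463).

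Timp2, which both inhibits MMPs and takes part in the activation of pro-MMP2 by MMP14, was even, at 643 to 1281 CPM in Arf6-null tumors (median 1024) and 687 to 1147 CPM in wild-type tumors (median 842). Its log2 fold change was 0.09 (standard error 0.20, adjusted p = 0.81 by edgeR). Timp3, whose product is bound to the matrix and also inhibits ADAM17, was at 584 to 2468 CPM in Arf6-null tumors (median 1662) and at 211 to 5506 CPM in wild-type tumors (median 1348). The wild-type values enclosed all Arf6-null ones, with wild-type replicate 2 lowest and wild-type replicate 6 highest. Its log2 fold change of -0.21 (standard error 0.62) was 0.51 without wild-type replicate 6, and the call did not change. Timp4 had 172 counts in all, reached 4.18 CPM in wild-type replicate 5 and at most 0.581 CPM elsewhere, and was not tested.

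**Figure D4:**
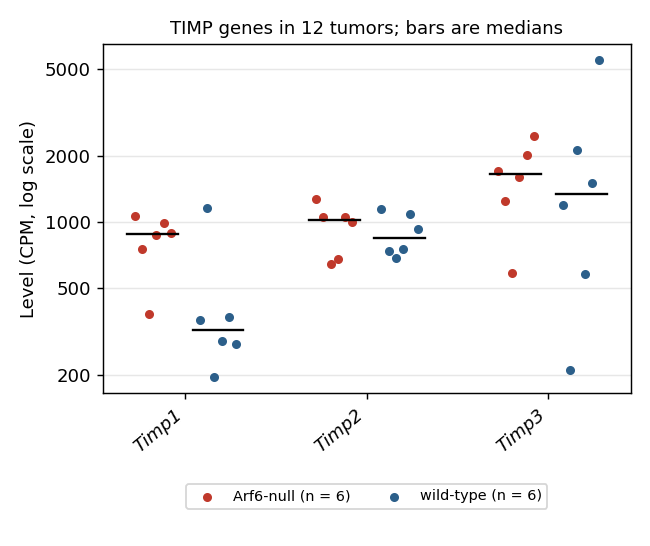
CPM (log axis) of Timp1, Timp2 and Timp3 with 1 point per tumor, Arf6-null left of wild-type and bars at the median (n = 6 each). For Timp1 the Arf6-null tumors lie between 381 and 1068 CPM and 5 wild-type tumors between 196 and 368 CPM, with the remaining one at 1159 CPM.

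The ADAMs with broad shedding activity, Adam9, Adam10, Adam15 and Adam17, were each at 98.1 CPM or more in every tumor. Adam17, on chromosome 12 at 21323509 to 21373632, was at 164 to 235 CPM in Arf6-null tumors (median 207) and at 98.1 to 181 CPM in wild-type tumors (median 139.9). Arf6-null replicates 3 and 6 lay below wild-type replicate 5, and the other 4 lay above all wild-type tumors. The means were 203 ± 31.5 CPM in Arf6-null and 142 ± 28.1 CPM in wild-type tumors (SD, n = 6 each), a log2 fold change of 0.51 (standard error 0.15, adjusted p = 0.0815 by edgeR; 0.0278 by DESeq2 and 0.0393 by limma-voom). Adam15, metargidin, was at 149 to 282 CPM in Arf6-null tumors (median 236) and 123 to 225 CPM in wild-type tumors (median 162), with Arf6-null replicate 6 the lowest of its group (log2 fold change 0.43, standard error 0.16, adjusted p = 0.149 by edgeR). Adam10, the main sheddase of Notch receptors, had medians of 159 and 192 CPM in Arf6-null and wild-type tumors (log2 fold change -0.13, standard error 0.14, adjusted p = 0.605 by edgeR). Adam9 had medians of 227 and 198 CPM, with nearly coinciding ranges of 148 to 307 and 152 to 296 CPM.

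Adam12 and Adam19, the meltrins, and Adam33 are linked to mesenchymal tissue. Adam12 was at 4.13 to 24.4 CPM in Arf6-null tumors (median 11.3) and 12.5 to 78.8 CPM in wild-type tumors (median 30.2), highest in wild-type replicates 6, 1 and 3, which also had the highest fibroblast marker sums. Its log2 fold change was -1.41 (standard error 0.55, adjusted p = 0.152 by edgeR) and -0.27 with the fibroblast score as a covariate. Adam19 had medians of 150.1 and 192 CPM and Adam33 of 4.23 and 8.02 CPM in Arf6-null and wild-type tumors (adjusted p = 0.532 and 0.204 by edgeR). Adam8, a leukocyte sheddase gene, ranged over 17.6 to 95.5 CPM in Arf6-null and 11.1 to 154 CPM in wild-type tumors.

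The noncatalytic ADAMs of the nervous system, Adam11, Adam22 and Adam23, did not share a direction. Adam22, on chromosome 5 at 8072352 to 8368160, was at 1.06 to 9.29 CPM in Arf6-null tumors (median 4.15) and 8.0 to 18.5 CPM in wild-type tumors (median 13.4). Only Arf6-null replicate 1 reached the wild-type range. The log2 fold change was -1.57 (standard error 0.44, adjusted p = 0.0752 by edgeR; 0.0084 by DESeq2 and 0.0405 by limma-voom). Adam11 was at 14.2 to 203 CPM in Arf6-null and 9.26 to 133 CPM in wild-type tumors, with wide overlap (log2 fold change 1.20, standard error 0.76, adjusted p = 0.364 by edgeR). Adam23 had medians of 0.892 and 2.24 CPM.

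Of the 33 ADAMs, 8 were not detected and 15 were tested. Adam18, Adam1b, Adam20, Adam24, Adam26a, Adam26b, Adam34 and Adam39 had 0 counts in all 12 libraries, which allows at most 0.00802 CPM each at 3 counts of the 374108751 in all, by counting error only. Another 10 ADAMs had too few reads to be tested, up to 123 counts for Adam28. In all, 26 members were not tested, 18 of them with 1 to 211 counts. Adam7, on chromosome 14 at 68497336 to 68533741, was low, with 821 counts in all and some reads in every tumor. It rested on few counts in the 5 wild-type tumors at 0.426 CPM or lower, which limits its fold change. It was at 1.21, 1.55, 2.20, 7.63, 7.35 and 1.05 CPM in Arf6-null replicates 1 to 6 and at 0.0398, 0.198, 0.426, 0.0329, 1.57 and 0.104 CPM in wild-type replicates 1 to 6. Wild-type replicate 5 lay within the Arf6-null range and the other 5 below it. The log2 fold change was 3.14 (standard error 0.93, adjusted p = 0.0825 by edgeR), and without wild-type replicate 5 it was 4.44 (adjusted p = 0.0295 by edgeR, where 3.27% of all tested genes were called). Leaving out each tumor in turn gave 2.76 to 4.44, and no other omission passed. Adam1a, with medians of 0.610 CPM in Arf6-null and 1.55 CPM in wild-type tumors, shares 63.7% of its exon bases with Gm42878 and others with Mapkapk5 on the same strand, so its counts are uncertain.

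**Figure D5:**
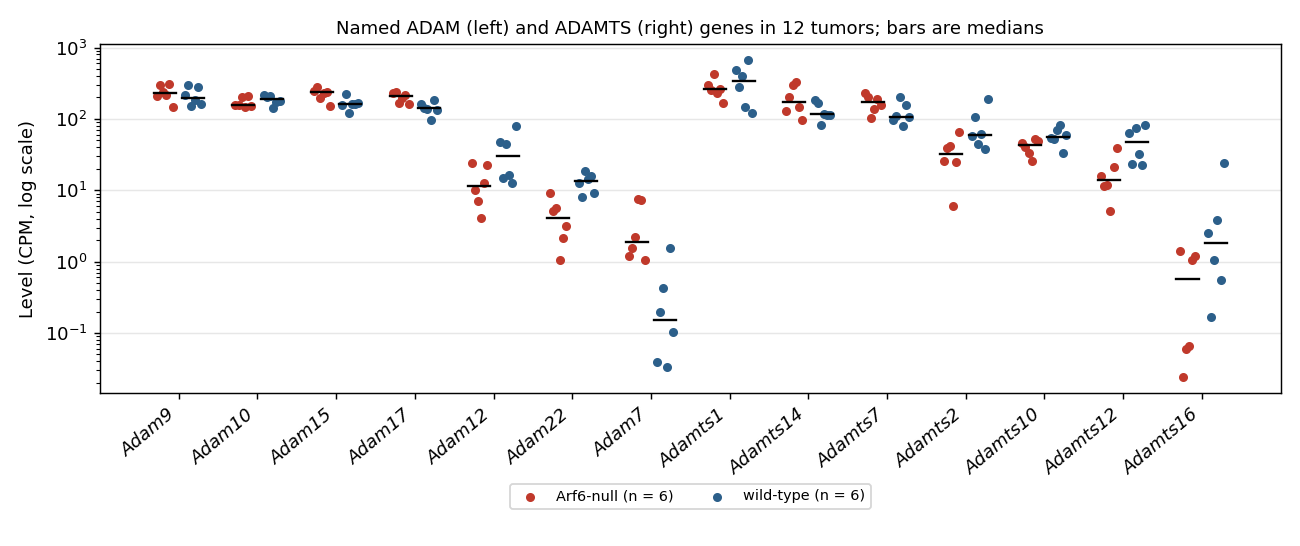
CPM (log axis) of the 7 ADAM and 7 ADAMTS genes chosen by level or smallest p, each class in order of mean CPM per kilobase, with 1 point per tumor, Arf6-null left of wild-type and bars at the median (n = 6 each). For Adam7 the Arf6-null tumors lie at 1.05 CPM or higher and 5 of the 6 wild-type tumors at 0.426 CPM or lower.

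The ADAMTS enzymes that trim the amino-terminal propeptide of fibrillar procollagens, Adamts2, Adamts3 and Adamts14, did not share a sign: Adamts2 and Adamts3 were negative and Adamts14 positive. Adamts2 was at 5.98 to 65.4 CPM in Arf6-null tumors (median 32.4) and 38.1 to 189.7 CPM in wild-type tumors (median 59.4), with Arf6-null replicate 4 lowest and wild-type replicate 6 highest (log2 fold change -1.29, standard error 0.52, adjusted p = 0.164 by edgeR; -0.42 with the fibroblast score as a covariate). Adamts14 was at 97.2 to 330.0 CPM in Arf6-null tumors (median 175) and 83.4 to 185 CPM in wild-type tumors (median 115), with a log2 fold change of 0.63 (standard error 0.30, adjusted p = 0.237 by edgeR). Adamts3 had medians of 0.411 and 1.20 CPM in Arf6-null and wild-type tumors (log2 fold change -1.66, standard error 0.86, adjusted p = 0.264 by edgeR). Col1a2, a fibrillar collagen gene, averaged 1170.5 ± 827 CPM in Arf6-null and 2949 ± 1638 CPM in wild-type tumors (SD, n = 6 each, adjusted p = 0.181 by edgeR).

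Adamts7 and Adamts12, which cut the cartilage matrix protein COMP, also had opposite signs. Adamts12, on chromosome 15 at 11064790 to 11349231, was at 5.15 to 39.2 CPM in Arf6-null tumors (median 13.9) and 22.4 to 82.8 CPM in wild-type tumors (median 47.6). Arf6-null replicate 6 was the only tumor of its group inside the wild-type range. Its log2 fold change was -1.52 (standard error 0.49, adjusted p = 0.101 by edgeR). It became -1.93 without Arf6-null replicate 6 (adjusted p = 0.0433 by edgeR, where 4.12% of all tested genes were called). Leaving out each tumor in turn gave -1.93 to -1.31, and no other omission passed. The value was -0.58 (adjusted p = 0.668 by edgeR) with the fibroblast score as a covariate. Adamts7 had medians of 173 and 108 CPM in Arf6-null and wild-type tumors (log2 fold change 0.44, standard error 0.25, adjusted p = 0.309 by edgeR). Comp itself was at 0.289 ± 0.0930 CPM in Arf6-null and 7.03 ± 13.4 CPM in wild-type tumors (SD, n = 6 each, adjusted p = 0.0566 by edgeR). Its log2 fold change was -4.58, and -2.41 without wild-type replicate 4, which held 34.3 CPM.

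The proteoglycan-cleaving ADAMTS genes showed wide overlap. Adamts1, the highest of the class, was at 169 to 429.7 CPM in Arf6-null tumors (median 259) and 119.8 to 665 CPM in wild-type tumors (median 341), so the wild-type values enclosed the Arf6-null ones (log2 fold change -0.35, standard error 0.39, adjusted p = 0.624 by edgeR). Adamts4 had medians of 26.7 and 33.3 CPM, Adamts5 of 13.9 and 11.5 CPM, Adamts9 of 20.8 and 25.0 CPM and Adamts15 of 10.5 and 7.29 CPM in Arf6-null and wild-type tumors. Adamts10, which binds fibrillin microfibrils, was at 25.7 to 52.4 CPM in Arf6-null tumors (median 43.0) and 33.3 to 81.4 CPM in wild-type tumors (median 56.1), with a log2 fold change of -0.51 (standard error 0.22, adjusted p = 0.186 by edgeR). Adamts16 had medians of 0.564 and 1.80 CPM in the same order, and wild-type replicate 6 stood at 24.4 CPM (log2 fold change -3.10, adjusted p = 0.168 by edgeR). Without that tumor the log2 fold change was -1.36. Adamts17, with 211 counts in all, was below the filter on low counts. Adamts13, which cleaves von Willebrand factor, had 12 counts in all, and Adamts18 and Adamts19 had 25 and 16.

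Among genes that activate, inhibit, carry or serve as substrates of these proteinases, calls depended on the tool. By edgeR 0 of 118 tested genes passed in 11 lists, where 1.15% of all tested genes were called. At an unadjusted p under 0.05 by edgeR there were 35 of 118, 17 higher and 18 lower. Over all tested genes 23.4% reached that level (11.0% higher and 12.4% lower). DESeq2 called 19 of 124 genes (9 higher and 10 lower, where 11.0% of all genes were called) and limma-voom 12 of 118 (6 higher and 6 lower, where 5.74% were called). Both called Bsg, Ctsb, Ereg, Frmd8, S100a10 and Adamtsl5 as higher and Adamtsl2, Adamtsl3, Fgf2, Jag1, Notch1 and Tgfa as lower. The tested genes were 9 genes of the plasminogen system, 8 convertases and cathepsins, 12 other inhibitors and surface regulators, 10 trafficking partners of ADAM10 and ADAM17, 11 EGF family ligands and receptors, 22 other shed proteins, 2 astacins, 7 ADAMTS-like proteins, 10 ADAMTS substrates, 16 AP-1 and ETS factors and 13 inducers. Their median log2 fold changes ran from -0.95 for the astacins to 0.42 for the plasminogen system. Bsg, whose product EMMPRIN induces MMPs in neighboring cells, averaged 800.1 ± 194 CPM in Arf6-null and 499 ± 131 CPM in wild-type tumors (adjusted p = 0.0811 by edgeR). Reck, encoding a membrane-anchored MMP inhibitor, averaged 10.8 ± 3.69 CPM in Arf6-null and 19.5 ± 6.55 CPM in wild-type tumors (adjusted p = 0.108 by edgeR). Of the ADAM17 partners, Frmd8, which stabilizes the iRhom and ADAM17 complex, averaged 159 ± 28.9 and 113 ± 19.4 CPM (adjusted p = 0.0794 by edgeR). Of shed proteins, the Notch ligand gene Jag1 averaged 23.1 ± 8.47 and 49.9 ± 11.2 CPM in Arf6-null and wild-type tumors (adjusted p = 0.052 by edgeR) and Cx3cl1 21.9 ± 11.9 and 118 ± 151 CPM (adjusted p = 0.0747 by edgeR). Wild-type replicate 4 had 424 CPM of Cx3cl1 and the wild-type median was 61.5 CPM; the log2 fold change was -2.42, and -1.37 without that tumor. The EGF receptor ligand genes Tgfa and Egf were low, at 0.376 ± 0.332 and 0.635 ± 0.151 CPM in Arf6-null tumors and 1.28 ± 0.437 and 1.56 ± 0.983 CPM in wild-type tumors (adjusted p = 0.0887 and 0.0968 by edgeR). In the same list 7 of 11 genes were positive with a median of 0.41, among them the more abundant ligand genes Ereg and Areg, which were singled out after their values were seen. Ereg averaged 182 ± 79.1 CPM in Arf6-null and 68.2 ± 49.4 CPM in wild-type tumors (log2 fold change 1.41, adjusted p = 0.0986 by edgeR), and Areg 77.8 ± 66.0 and 21.8 ± 11.6 CPM (1.84, adjusted p = 0.101 by edgeR). The AP-1 gene Fosl1 averaged 111 ± 31.7 CPM in Arf6-null and 59.3 ± 26.9 CPM in wild-type tumors (adjusted p = 0.113 by edgeR). Each ± in these values is an SD with n = 6.

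The remaining named genes of these lists were S100a10 and Anxa2 (plasminogen binding), the cathepsin genes Ctsb and Ctsl, Tspan15, Tll1, Bmp1, Adamtsl2, Adamtsl3, Atf3, Fgf2 and Pdgfb, with edgeR adjusted p between 0.0562 and 0.635. Adamtsl3 and Adamtsl2, secreted proteins that resemble ADAMTS enzymes without the proteinase domain, were at 0.425 ± 0.312 and 0.225 ± 0.240 CPM in Arf6-null tumors and at 5.13 ± 4.81 and 1.99 ± 1.93 CPM in wild-type tumors (SD, n = 6 each, adjusted p = 0.0562 and 0.0629 by edgeR). DESeq2 gave an adjusted p of 0.000136 for Adamtsl3 and 0.00153 for Adamtsl2, and limma-voom 0.0412 and 0.0257. Of the edgeR fits with 1 tumor left out, both passed only without wild-type replicate 2, wild-type replicate 5 or Arf6-null replicate 6. The edgeR adjusted p was then 0.0271 to 0.0441 for Adamtsl3 and 0.0434 to 0.0490 for Adamtsl2. These omissions called 4.69%, 3.27% and 4.12% of all tested genes, in that order. Ctsb averaged 3471 ± 273 CPM in Arf6-null and 2328 ± 622 CPM in wild-type tumors (SD, n = 6 each, adjusted p = 0.084 by edgeR). Other marker lists that could bear on the members were macrophages, at 2299 to 3485 CPM in Arf6-null and 1721 to 5425 CPM in wild-type tumors (14 of 18 negative, 0 called by edgeR, DESeq2 or limma-voom), endothelium, at 342 to 796 and 351 to 785 CPM (11 of 14 negative, 0 called by edgeR, 2 by DESeq2 and 1 by limma-voom), and mast cells, at 9.48 to 168 and 77.9 to 945 CPM (10 of 11 negative, 0 called by edgeR, 8 by DESeq2 and 2 by limma-voom, all lower). No marker of these lists was at 0 counts throughout, and their part in the members' values was not tested.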

How the data were processed

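Stranded mRNA libraries (TruSeq) were prepared from Direct-zol RNA, per the labels' protocols. The submitters' processing notes name STAR 2.7.3a, featureCounts 1.6.3, DESeq2 1.26.0 and the build GRCm38 (mm10); the strand setting, the rule for multi-mapping reads and the annotation were not given in the sources used here. Raw counts per Ensembl gene were deposited by the authors. Columns were matched by library name and groups taken from the genotype label. Symbols, coordinates and exon lengths came from GENCODE M21, which held 55227 identifiers; the others took at most 0.00186% of a library. The closest of 66 library pairs had a chi-square of 84.6 per degree of freedom. The depth was 21007954 to 45688253 counts.

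Low counts were filtered with filterByExpr (minimum 10), libraries scaled by TMM, and genotypes compared with the robust quasi-likelihood test of edgeR 4.0.16 (R 4.3.3), adjusted by Benjamini-Hochberg over all 16225 genes with a threshold of 0.05. CPM use the scaled library sizes. Alternatives were other scalings, DESeq2 1.42.0, limma 3.58.1, other filters, Y-linked, muscle or fibroblast scores (mean log2 CPM with a prior count of 2) as covariates, and left-out or thinned libraries. Correlations used 100000 permutations. The functions were tested on simulated data. Members named were the 5 of each class with the smallest p, the 3 with the highest CPM per kilobase, every tested TIMP, and the 2 genes of each pathway list with the smallest p. The members and lists were chosen with earlier results of these data known.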

Additional observations from a re-analysis of the deposited data

Results flagged for a closer look

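For the 48 named genes, the values of each genotype were searched for a tumor standing apart by Dixon's criterion. This is the gap to its nearest neighbor as a share of the range of the 6 tumors, at the 95% critical value. Gap and range were taken on the logarithm of CPM + 1, so they differ from those of the CPM printed below. The criterion was met in 8 of 96 sets, and chance gives about 1 in 20. Timp1 was 381 CPM in Arf6-null replicate 3, where the other 5 had 755 to 1068 CPM, and 1159 CPM in wild-type replicate 2, where the other 5 had 196 to 368 CPM. Mmp16 was 6.22 CPM in Arf6-null replicate 6, where the other 5 had 0.0594 to 1.04 CPM. In wild-type replicate 5, Mmp15 was 1.49 CPM (others 5.25 to 7.76 CPM), Adam7 was 1.57 CPM (others 0.0329 to 0.426 CPM) and Frmd8 was 150.3 CPM (others 98.4 to 115 CPM). Tspan15 was 19.8 CPM in wild-type replicate 6 (others 5.92 to 9.33 CPM), and Comp was 34.3 CPM in wild-type replicate 4 (others 0.562 to 2.73 CPM).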

How the results depend on the processing

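The design text calls the tumors matched, but the labels do not pair Arf6-null with wild-type tumors, so no paired analysis was possible. The number of members called was 0 of 52. It was 7 of 70 with DESeq2, 5 of 52 with limma-voom, 3 of 52 at an adjusted p under 0.1, and 0 to 2 when 1 tumor was left out. The fits with 1 tumor left out called Timp1 without wild-type replicate 2 and Adam7 and Adamts17 without wild-type replicate 5. They called Adamts12 and Mmp15 without Arf6-null replicate 6. The number was 0 under the other settings. Over all genes 186 were called, against 2215 with DESeq2, 931 with limma-voom, 1359 at an adjusted p under 0.1, 31, 20 and 8 with the Y-linked, muscle and fibroblast covariates, 35 without the 3 wild-type tumors highest in muscle markers, and 25 to 766 when 1 tumor was left out. Signs turned for genes with small or uncertain values, and the cause was not tested. With the fibroblast covariate the log2 fold change was 0.97 for Mmp3, 1.01 for Mmp10, 0.30 for Timp3, -0.035 for Adam9, 0.11 for Adamts16 and 0.17 for Bmp1. With the Y-linked covariate it was 1.12 for Timp3 and -0.066 for Adam9, with the muscle covariate -0.018 for Timp2, and with limma-voom 0.21 for Timp3. Leaving out 1 tumor gave -0.32 to 0.48 for Mmp3, -1.34 to 0.70 for Mmp10, -0.0077 to 0.19 for Timp2 and -0.44 to 0.51 for Timp3. Depth limits the members under about 1 CPM, whose values rest on few counts.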
